A study of Mus musculus with 3 samples.

Results

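Neutrophil precursors were picked from 3 droplet scRNA-seq libraries of mouse long bone by the RNA of 4 neutrophil genes. A kept barcode counted as a precursor when *Ngp*, *Camp*, *S100a8* and *S100a9* together held at least 3% of its unique molecular identifiers (UMIs, which count captured RNA molecules), when the blood-cell genes *Laptm5*, *Tyrobp* and *Coro1a* together had at least 3 UMIs, when the macrophage genes *C1qa* and *C1qb* had under 5, and when the endothelial genes *Pecam1* and *Cdh5* had at most 1. Barcodes were kept with up to 15% of UMIs from mitochondrial genes and up to 30% from ribosomal protein genes, and with 1500 genes or more (metaphyseal) or 1000 genes or more (*Pdgfra-GFP*). This gave 199 precursors among 15628 kept cells (1.27%). All mice were untreated animals aged 3 weeks, labelled C57BL/6 (C57BL/6J for the metaphyseal libraries, per the methods). Metaphyseal replicates 1 and 2 held cells of the metaphysis, the growing end of the bone shaft, from males without a transgene, after lineage-positive, CD45+ and CD117+ cells had been removed with magnetic beads. The third library held cells of femur and tibia, from a dissected region that the study calls the metaphysis in 1 place and metaphysis with epiphysis in another, of males heterozygous for the *Pdgfra-H2B-GFP* allele, which puts a nuclear green fluorescent protein under the control of *Pdgfra*, sorted for GFP. Both preparations were made to enrich cells other than blood cells, so the precursors are those that stayed behind, and their share says nothing of their share in bone. The number of mice per library was not given in the sources used here.

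Neutrophils are made in bone marrow from myeloid progenitors, and their granules are filled in an order. Dividing promyelocytes make primary granules with myeloperoxidase and elastase, later precursors stop dividing while they make secondary granules with lactoferrin and cathelicidin, and the last stages add gelatinase granules and the receptors with which mature cells leave the marrow. *Ngp* (neutrophilic granule protein) and *Camp* (cathelicidin) encode secondary granule proteins, and *S100a8* and *S100a9* encode calprotectin, a calcium-binding protein that fills the cytoplasm of neutrophils at late stages too. C/EBP factors and PU.1 are the transcription factors best known for driving granule genes.

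The upstream sequences of 4 granule genes are shown because the levels of these genes set the stages apart: *Elane* for primary, *Ngp* and *Ltf* for secondary and *Mmp8* for gelatinase granules. They come from RefSeq (GRCm38.p6, plus strand, read 5′ to 3′ towards the start of transcription), with bases that the Gencode M21 annotation places in an exon left out. Capitals mark matches, on either strand, to the letters TTNNGCAA, a C/EBP-type motif, or GAGGAAGT, a PU.1-type motif.
Elane (chr10:79886062-79886246): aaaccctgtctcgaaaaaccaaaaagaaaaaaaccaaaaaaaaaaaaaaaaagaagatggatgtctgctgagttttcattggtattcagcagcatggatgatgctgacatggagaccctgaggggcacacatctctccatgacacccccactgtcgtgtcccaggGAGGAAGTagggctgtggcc
Ngp (chr9:110419558-110419746): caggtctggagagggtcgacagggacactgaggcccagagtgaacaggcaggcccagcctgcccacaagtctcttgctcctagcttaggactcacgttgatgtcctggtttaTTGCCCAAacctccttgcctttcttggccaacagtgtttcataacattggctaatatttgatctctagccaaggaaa
Ltf (chr9:111019042-111019270): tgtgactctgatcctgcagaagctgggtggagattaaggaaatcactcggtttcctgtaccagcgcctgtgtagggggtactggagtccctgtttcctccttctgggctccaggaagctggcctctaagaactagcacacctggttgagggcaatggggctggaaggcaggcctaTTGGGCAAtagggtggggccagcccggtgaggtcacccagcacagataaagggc
Mmp8 (chr9:7558179-7558428): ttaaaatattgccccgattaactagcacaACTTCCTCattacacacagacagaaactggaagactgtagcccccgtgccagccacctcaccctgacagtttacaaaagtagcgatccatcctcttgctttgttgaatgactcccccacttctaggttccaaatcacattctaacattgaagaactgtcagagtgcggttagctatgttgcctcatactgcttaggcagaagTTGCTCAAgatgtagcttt

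The C/EBP-type letters stood within 250 bases before the start in *Ngp* (138 and 11 bases before the RefSeq start, the nearer match lying in the part not shown), *Ltf* (75 bases) and *Mmp8* (19 bases). They were found in 10.8% of all 27025 genes with a promoter in the RefSeq table. None of the 5 primary granule genes with a sequence held them, against 2 of 6 secondary granule genes (*Lcn2* and *Ltf*) and 2 of 5 gelatinase granule genes (*Adam8* and *Mmp8*). Of 7 stromal and osteoblast genes 2 held them as well. The PU.1-type letters were found in 2.79% of all genes and in 4 of 5 primary granule genes (*Ctsc*, *Elane*, *Mpo* and *Prtn3*). *Mmp8* held both motifs, which do not overlap. A match in so short a window is a description of the letters and says nothing of binding.

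Metaphyseal replicate 1 held 36 precursors of 2382 kept cells (1.51%, exact binomial 95% interval 1.06 to 2.09%), metaphyseal replicate 2 held 35 of 2004 (1.75%, 1.22 to 2.42%), and the *Pdgfra-GFP* library held 128 of 11242 (1.14%, 0.951 to 1.35%). The 3 intervals overlap at these settings. Unmixed precursors, defined further on, were 1.18, 1.5 and 0.489% of kept cells, and with a minimum of 500 genes in each library the shares were 2.73, 2.73 and 1.37%, so the *Pdgfra-GFP* share was then the lowest by a wider margin. The libraries had totals of 25243314, 22082735 and 91747759 UMIs, and here and in every run of 3 values that follows, the order is metaphyseal replicate 1, metaphyseal replicate 2 and the *Pdgfra-GFP* library. Precursors had medians of 11624, 12357 and 9464 UMIs, above those of the other kept cells (6222, 6385 and 5298). Of 207 kept cells that reached the 3% granule share, 6 were turned away for endothelial UMIs, all of them metaphyseal, 2 for too few blood-cell UMIs and 0 for *C1qa* and *C1qb*. Close to the limit, the *Pdgfra-GFP* library had 11 precursors with a granule share from 3 to under 4% and 7 cells from 2 to under 3%, and the metaphyseal libraries had 0 precursors just inside and 2 cells each just outside. The 11 cells just inside had a median of 3.29% of UMIs in stromal and osteoblast genes and a median of 0% in *Ngp* and *Camp*.

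Many precursors of the *Pdgfra-GFP* library carried RNA of stromal genes as well. With 8 stromal and osteoblast genes (*Col1a1*, *Col1a2*, *Pdgfra*, *Lepr*, *Cxcl12*, *Bglap*, *Sparc* and *Postn*) and 6 erythroid genes (such as *Hbb-bs*, a globin gene, and *Alas2*), a precursor was called mixed when either list held at least 1% of its UMIs. By this measure, chosen after the values had been seen, 8 of 36 (22.2%), 5 of 35 (14.3%) and 73 of 128 (57.0%, 48.0 to 65.7%) were mixed. The *Pdgfra-GFP* mixed cells all passed through the stromal list, with 73 over the limit there and 2 over the erythroid limit, while of the 13 mixed metaphyseal cells 8 passed the stromal and 6 the erythroid limit.

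**Figure D1:**
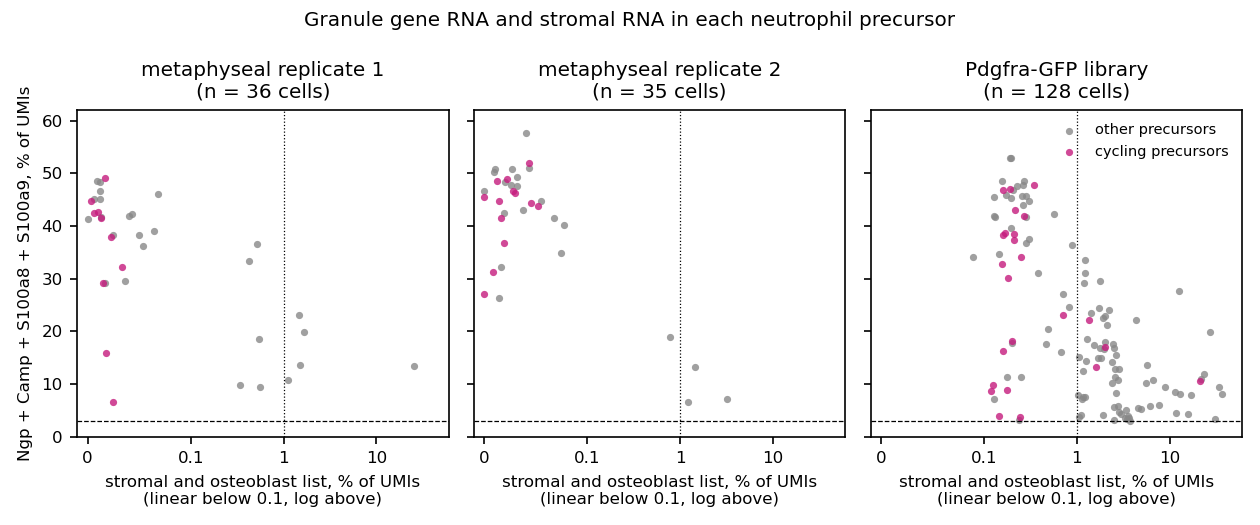
Each point is a neutrophil precursor, with the share of its UMIs in 8 stromal and osteoblast genes on the x axis (%, linear under 0.1 and logarithmic above) and the share in *Ngp*, *Camp*, *S100a8* and *S100a9* on the y axis (%). The dashed line is the 3% limit of the gate, the dotted line the 1% limit for mixed cells, and colour marks the cycling precursors. Most metaphyseal cells sit at low stromal and high granule shares, whereas 73 of 128 *Pdgfra-GFP* cells lie on or to the right of the dotted line.

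Mixed cells had smaller granule shares, and in the *Pdgfra-GFP* library the stromal list held a median of 2.58% of their UMIs (highest 36.9%). Their granule share had medians of 17.9, 13.3 and 10.8% of UMIs, against 41.4, 45.9 and 37.5% in the unmixed precursors. *Col1a1*, the chain of type I collagen, stood at 22810 CPM (counts per 1000000 UMIs, from UMIs summed over cells) in mixed and 553 CPM in unmixed *Pdgfra-GFP* precursors, and at 29428 CPM in all other kept cells of that library. *Bglap* (osteocalcin) stood at 20445 CPM in the mixed and 406 CPM in the unmixed cells. Over the mixed cells of that library the stromal list summed to 84633 CPM, against 114845 CPM in its other kept cells. Cells rich in stromal RNA weigh most in such sums. In the metaphyseal libraries, *Hbb-bs* stood at 68483 and 113354 CPM in mixed and 95.8 and 87.2 CPM in unmixed precursors. *Col1a1*, *Bglap* and *Hbb-bs* belong to the lists that define mixed cells, so a gap between mixed and unmixed cells was set by the definition. RNA of the H2B-GFP transgene was seen in 31 *Pdgfra-GFP* precursors, 26 of them mixed and 5 unmixed, and in 29.1% of the other kept cells of that library. Scrublet, which compares cells with simulated doublets, called 1 of the 199 precursors a doublet, and its rates over all kept cells were 1.05, 0.848 and 1.38%, the last against an expected rate of 8.99%. Beyond this call, whether mixed precursors are droplets with more than 1 cell was not tested. The tests and the main counts are therefore also given for the 28, 30 and 55 unmixed precursors.

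The label was checked against other neutrophil genes, and most of them were high in these cells. Of the 9 neutrophil markers outside the gate, 8 were at least 4-fold higher in precursors than in all other kept cells of each library after 10 CPM had been added, a size reached by 183 of the 7736 genes measured (2.37%), with 23 (0.297%) that much lower. For unmixed precursors it was reached by 214 of 7870 genes (2.72%), with 460 (5.84%) that much lower. Of other blood lineages, erythroid genes were high in the sums over metaphyseal precursors, with *Hbb-bs* most abundant. The 6 genes reached 30584 and 41755 CPM there, against 5012 and 4532 CPM in the other kept cells. Only 3 of 36 and 3 of 35 of these precursors had at least 1% of their UMIs in erythroid genes. In the *Pdgfra-GFP* library the erythroid genes summed to 691 CPM against 4273 CPM, and in unmixed precursors, limited by this list, to 202, 139 and 456 CPM. *C1qa*, *C1qb*, *C1qc* and *Mrc1* of the 8 macrophage genes were at 0 in both metaphyseal libraries, where the list summed to 416 and 348 CPM with *Apoe* as its most abundant gene, and it summed to 1429 CPM in the *Pdgfra-GFP* library, but to 90.5, 74.4 and 228 CPM in unmixed precursors. *C1qa* and *C1qb* were limited by the gate, so their low values are no support for the label. The 7 monocyte genes summed to 635, 600 and 942 CPM, almost all from *Ly6c2* (550, 572 and 852 CPM), a surface protein that neutrophil precursors also carry, and to 716, 647 and 1697 CPM in unmixed precursors. Megakaryocyte, basophil and eosinophil genes summed to under 8 CPM in each library. The B-lineage list summed to 123, 145 and 229 CPM, mostly *Ebf1*, against 11409, 8953 and 8447 CPM in the B-lineage cells of the same libraries, and to 93.1, 23.1 and 75.4 CPM in unmixed precursors.

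Beyond the gate, the precursors were led by *Lcn2*, *Ltf*, *Wfdc21* and *Chil3*, and the same 15 genes stood far above the other kept cells in all 3 libraries. They were ranked by the lowest of their 3 ratios to the other kept cells, among genes with at least 200 CPM in precursors of each library. The order was *Lcn2*, *Ltf*, *Wfdc21*, *Chil3*, *Pglyrp1*, *Retnlg*, *Ifitm6*, *Fcnb*, *Mmp8*, *Serpinb1a*, *Cd177*, *Cd52*, *Cebpe*, *Ly6g* and *Trem3*. The gate selected these cells by co-expressed genes, so the ratios are descriptions without a test. *Lcn2* (chr2:32384633-32388252), which encodes lipocalin 2, a binder of bacterial iron carriers, stood at 12423, 14279 and 8125 CPM in precursors and at 9.07, 24.5 and 6.20 CPM in the other cells. *Ltf* (chr9:111019271-111042767), encoding the iron-binding lactoferrin, stood at 6649, 6872 and 4671 CPM against 5.10, 6.62 and 1.97 CPM. *Chil3*, a chitinase-like protein, stood at 6067, 6967 and 5075 CPM against 28.6, 29.5 and 12.4 CPM. For each of these genes the lowest precursor value lay far above the highest value of the other cells. *Pglyrp1*, a peptidoglycan recognition protein, stood at 2015, 1877 and 2361 CPM against 5.04, 5.25 and 5.44 CPM. *Ly6g*, the antigen by which mouse neutrophils are usually sorted, stood at 475, 413 and 347 CPM against 0.751, 0.562 and 0.257 CPM. *Cebpe*, the C/EBP factor of secondary granule genes, stood at 459, 456 and 390 CPM against 0.536, 1.19 and 1.49 CPM. The gate genes themselves stood at 28230, 32777 and 27826 CPM for *Ngp*, 43919, 39917 and 29878 CPM for *Camp*, 107506, 164302 and 74341 CPM for *S100a8* and 149268, 170017 and 70818 CPM for *S100a9*. *S100a8* and *S100a9* were lowest in the *Pdgfra-GFP* library in all precursors, and in unmixed precursors they were still lowest there (107552 and 100631 CPM), while *Ngp* was then highest there (46768 CPM).

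**Figure D2:**
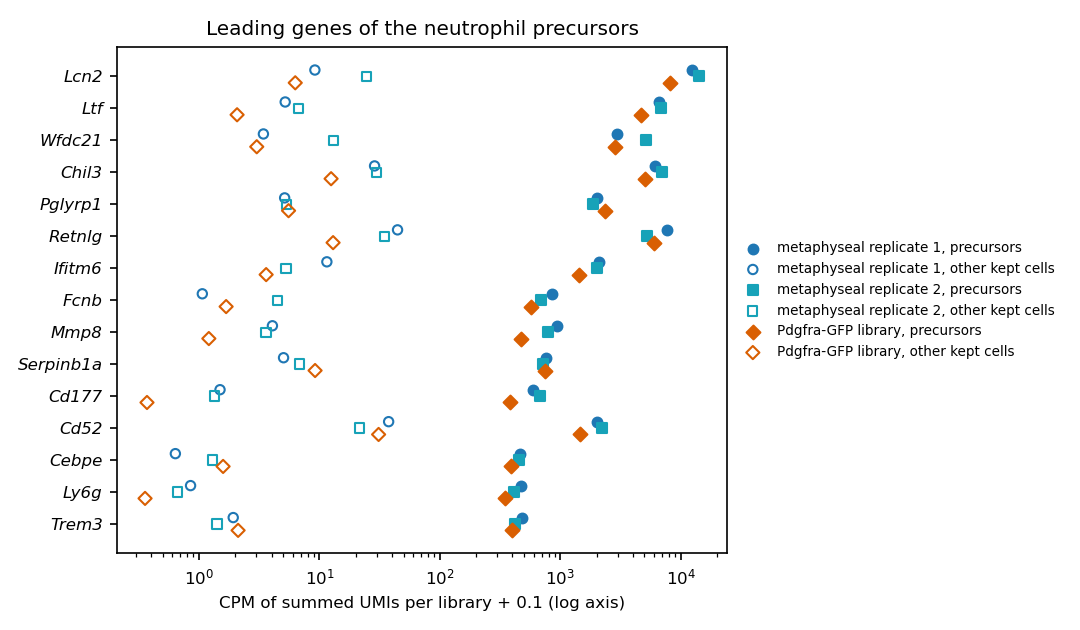
The 15 leading genes by library, as CPM of UMIs summed over cells plus 0.1 (logarithmic x axis), with filled symbols for neutrophil precursors and open symbols for all other kept cells. In each gene the 3 filled symbols lie together and well to the right of the open ones, such as *Ltf* at 4671 to 6872 CPM against 1.97 to 6.62 CPM.

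Lists of granule, receptor and oxidase genes were mostly in the higher group. At least 4-fold above the other kept cells in each library were 7 of 8 secondary granule genes, 21 of 22 late precursor and mature neutrophil genes, 6 of 6 genes of the NADPH oxidase, which makes superoxide in phagocytes, 8 of 9 receptors, 3 of 6 gelatinase granule genes and 2 of 6 primary granule genes. In unmixed precursors the late genes numbered 18 of 22 and the receptors 7 of 9, and the counts of the other 4 lists were the same. The lists' median of the lowest log2 ratio was 5.08 for secondary granule, 3.18 for late, 4.07 for oxidase and 1.13 for primary granule genes, against -1.07 over all genes measured. Of 8 haematopoietic transcription factors, 7 were measured and 2 were that much higher. Against the 35, 27 and 47 B-lineage cells of the same libraries (*Cd79a* and *Cd79b* with at least 3 UMIs), 125 of 7874 genes (1.59%) were at least 4-fold higher and 146 (1.85%) lower in precursors. With unmixed precursors these were 141 (1.82%) and 168 (2.17%) of 7757 genes. In all precursors, secondary granule genes again had the highest median of the lowest log2 ratio among these lists (4.94, 7 of 8 genes at this size). Late genes followed with 3.57 and 20 of 22 genes. Of the oxidase genes 2 of 6 reached this size (4 of 6 in unmixed precursors), and 0 of 6 primary granule genes did. That list summed to 37.7, 31.8 and 6509 CPM in the B-lineage cells themselves. Macrophages with *C1qa* and *C1qb* numbered 77 in the *Pdgfra-GFP* library, 0 and 1 in the metaphyseal ones, and in that library alone 290 of 6022 genes (4.82%) were at least 4-fold higher and 292 (4.85%) lower in precursors. With unmixed precursors these were 199 (3.51%) and 437 (7.71%) of 5667 genes. Of the oxidase genes 1 of 6 was that much higher than in macrophages, and 2 of 6 with unmixed precursors. The oxidase list summed to 3654 CPM in precursors, 5515 CPM in unmixed precursors and 3493 CPM in macrophages of that library.

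Stage genes were unevenly spread over the precursors, and primary granule RNA sat in few of them. *Elane* (neutrophil elastase) reached 10 UMIs in 6 of 36, 2 of 35 and 14 of 128 precursors, and the 5 richest cells held 96.1, 99.1 and 68.8% of its UMIs. *Mpo* (myeloperoxidase) reached 10 UMIs in 2, 0 and 11 cells. Of the unmixed precursors, 5, 1 and 14 reached 10 UMIs of *Elane* and 2, 0 and 11 of *Mpo*. By contrast *Ltf* reached 10 UMIs in 27, 28 and 79 precursors and *Lcn2* in 35, 33 and 96. Precursors with at least 1% of UMIs in the 6 primary granule genes numbered 2, 0 and 11, so the CPM of primary granule genes rests on a handful of cells in each library. In the 11 such cells of the *Pdgfra-GFP* library, *Elane* stood at 25855 CPM, *Camp* at 29800 CPM, *Fcnb* at 1995 CPM, *Ltf* at 26.0 CPM and *Mmp8* at 0. A further 1, 1 and 17 kept cells with blood-cell UMIs had that much primary granule RNA but stayed under the granule limit of the gate, and were not counted as precursors. *Mmp8* (neutrophil collagenase) reached 10 UMIs in 17, 13 and 22 precursors and *Retnlg* (a resistin-like protein of mature neutrophils) in 26, 20 and 76. In unmixed precursors *Ltf* reached this in 21, 26 and 39, *Mmp8* in 12, 12 and 11 and *Retnlg* in 19, 16 and 18.

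Within the unmixed precursors, late-stage RNA was low where cell-cycle RNA was high. Across cells of a library, the share of UMIs in 10 G2M genes (such as *Mki67*, *Top2a* and *Cdk1*) and the share in the gelatinase granule list had Spearman's rho of -0.78 (28 cells), -0.62 (30 cells) and -0.67 (55 cells). With the late precursor and mature list rho was -0.76, -0.77 and -0.68, and between the gelatinase and late lists it was 0.87, 0.77 and 0.77. These are descriptions, because the cells share a library, the shares share a total, and the G2M share also went with the number of UMIs (rho 0.82, 0.57 and 0.63).

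To compare dividing with other precursors over libraries, a precursor was called cycling when the 10 G2M genes held at least 0.1% of its UMIs. This is a cut through a range of values: 17, 17 and 77 precursors were at 0, and 0, 1 and 12 lay between 0.08 and 0.12%. It gave 10 (27.8%, 14.2 to 45.2%), 13 (37.1%, 21.5 to 55.1%) and 24 (18.8%, 12.4 to 26.6%) cycling precursors, whose intervals overlap. Among unmixed precursors 9 of 28, 12 of 30 and 20 of 55 were cycling. Cycling precursors were deeper (medians of 20335, 16865 and 12208 UMIs against 8875, 10520 and 8769 in the others), and 6 of 47 were mixed against 80 of the 152 others. The part of depth in the results was not tested. UMIs were summed per library and class and tested with the quasi-likelihood test of edgeR with the library as a block, leaving out the 10 G2M genes and the gate genes. In all precursors 698 of 2762 genes (25.3%) passed an adjusted p of 0.05, 289 (10.5%) higher and 409 (14.8%) lower in cycling precursors. In unmixed precursors 357 of 1946 genes (18.3%) passed, 152 (7.81%) higher and 205 (10.5%) lower. Of the 698 calls, 459 were tested in both fits, 279 had the same call in both and 0 the opposite call. The unmixed values are given first, since the fit over all precursors also called 5 of 6 stromal genes tested lower in cycling cells, and the unmixed fit called only *Cxcl12* of 4.

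The 10 genes with the largest rise in unmixed cycling precursors were *Prc1*, *Kif20b*, *Nusap1*, *Ccnb1*, *Spc25*, *H2afx*, *Tacc3*, *Kif22*, *Neil3* and *Plk1*. The cut was made on G2M genes, with which several of these are known to be expressed, so their values are a description of the class. *Nusap1*, a spindle protein, stood at 203, 288 and 190 CPM in cycling and 0, 5.04 and 17.4 CPM in other precursors (log2 fold change 4.37 ± 0.55 SE). *Ccnb1* (cyclin B1) stood at 119, 88.9 and 164 CPM against 0, 0 and 13.9 CPM. Of 6 S phase genes tested, *Rrm2* and *Tyms*, which supply deoxynucleotides, were higher (log2 fold change 2.11 ± 0.43 and 2.25 ± 0.52), and 4 did not pass. In all precursors 4 of 6 passed, with *Mcm5* and *Mcm6* added.

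Gelatinase granule genes were lower in cycling precursors, 4 of 4 tested in the unmixed fit and 3 of 4 in all precursors. In the unmixed fit *Mmp8* had the largest fall of any called gene with at least 20 CPM on average, while over all precursors *Stfa2l1* had it (-6.18 ± 0.74). *Stfa2l1* was not among the genes tested in the unmixed fit. It stood at 5.19, 0 and 7.43 CPM in cycling and 469, 579 and 27.8 CPM in other unmixed precursors. *Mmp8* stood at 98.7, 68.0 and 7.43 CPM in cycling and at 1762, 1758 and 792 CPM in other unmixed precursors, and the classes did not overlap (log2 fold change -5.08 ± 0.41, edgeR adjusted p = 0.0033). *Mmp9* (gelatinase B) stood at 140, 397 and 52.0 CPM against 1369, 1481 and 1303 CPM (-3.41 ± 0.48, edgeR adjusted p = 0.00682). *Adam8*, a membrane protease, changed by -2.80 ± 0.35, and *Itgam*, the integrin chain CD11b, by -1.14 ± 0.27, the gene that did not pass in all precursors.

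Late precursor and mature neutrophil genes were lower as well, with 14 of 21 tested in unmixed precursors and 0 higher. *Retnlg* stood at 1906, 585 and 227 CPM in cycling and 14129, 10504 and 5498 CPM in other precursors (log2 fold change -4.11 ± 0.35, edgeR adjusted p = 0.00347). *Ifitm6*, an interferon-induced membrane protein, stood at 753, 1035 and 754 CPM against 3895, 3390 and 2966 CPM (-2.26 ± 0.21). *Slpi*, a protease inhibitor that guards against elastase, stood at 234, 225 and 320 CPM against 1173, 1028 and 851 CPM (-2.21 ± 0.27). In each of these the highest cycling value was under the lowest value of the other precursors. Among receptors 4 of 8 were lower: *Cxcr2*, the chemokine receptor that draws neutrophils out of the marrow (-2.72 ± 0.51), the formyl peptide receptors *Fpr1* (-1.62 ± 0.33) and *Fpr2* (-2.45 ± 0.32), and the complement receptor *C5ar1* (-1.19 ± 0.30). *Csf3r*, the receptor of the growth factor G-CSF, stood at 31.2, 41.8 and 66.9 CPM against 104, 121 and 52.1 CPM and did not pass (edgeR adjusted p = 0.129). *Il1b* passed in all precursors (-2.76 ± 0.41) and not in the unmixed ones (-2.51 ± 0.81). In all precursors 14 of 22 late genes were lower and 1, the protease inhibitor *Serpinb1a*, was higher. Outside the lists, *S100a6*, a calcium-binding relative of the gate genes, stood at 213, 648 and 178 CPM in cycling and 2706, 4081 and 1587 CPM in other unmixed precursors (-3.38 ± 0.25). *Isg15*, *Bst1*, *Sh3glb1*, *Cstdc4* and *Cyp4f18*, with *Ccl6* of the late list, completed the 10 with the largest fall.

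**Figure D3:**
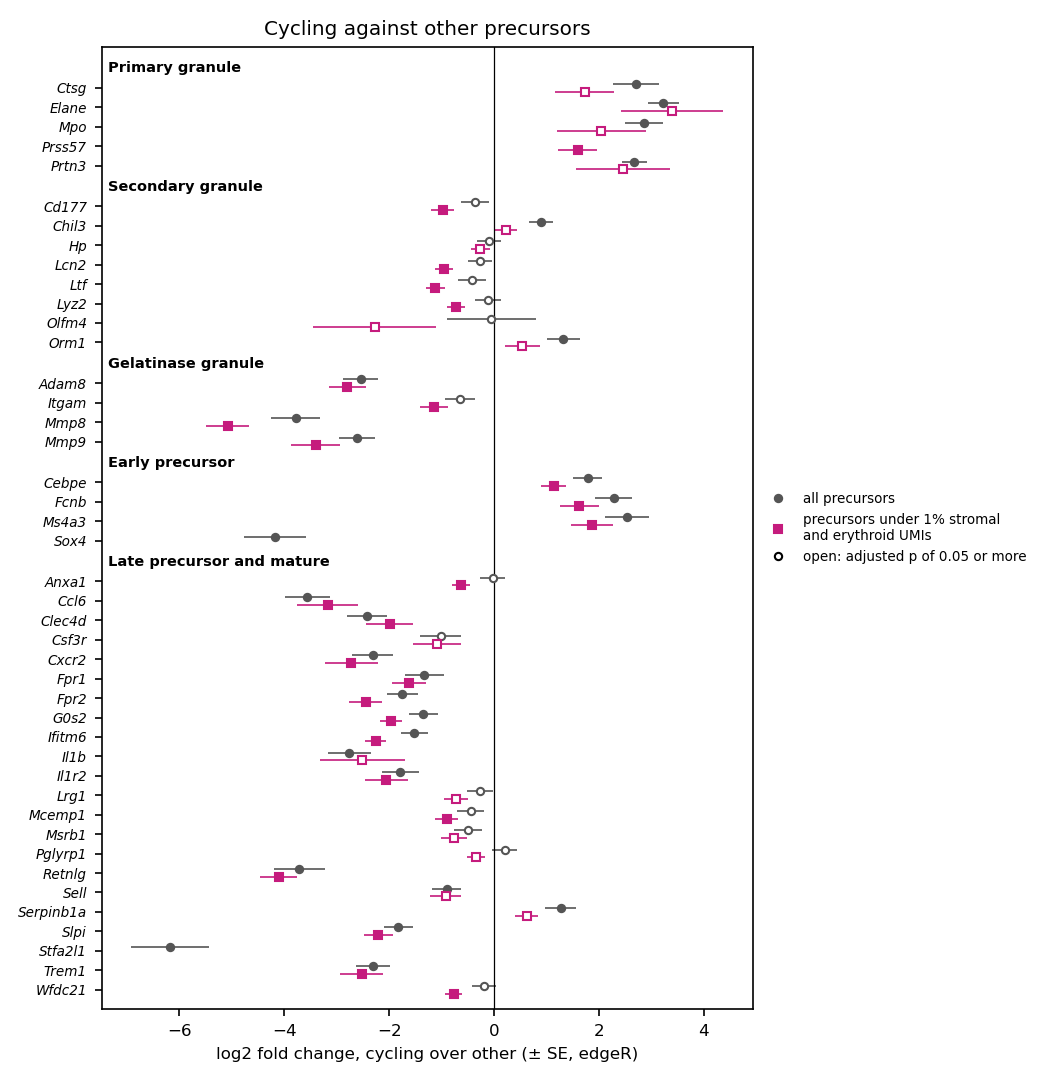
Log2 fold changes between cycling and other precursors (x axis, bars ± SE from edgeR) for the granule, early and late gene lists, in all precursors (grey circles) and in unmixed precursors (pink squares), with open symbols at an adjusted p of 0.05 or more. Gelatinase granule genes lie left of 0, with *Mmp8* at -5.08 in unmixed precursors, and *Cebpe*, *Fcnb* and *Ms4a3* lie right of 0.

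Early precursor genes were higher in cycling precursors. *Cebpe* stood at 867, 721 and 1074 CPM against 262, 292 and 490 CPM in other unmixed precursors (log2 fold change 1.14 ± 0.23, edgeR adjusted p = 0.0179). *Fcnb*, a ficolin of immature neutrophils, stood at 1942, 1098 and 1698 CPM against 235, 408 and 705 CPM (1.63 ± 0.37). *Ms4a3*, a membrane protein of granulocyte progenitors, stood at 488, 136 and 1178 CPM against 49.1, 60.4 and 316 CPM (1.87 ± 0.40). These 3 were all the genes of the list tested in the unmixed fit, and the cycling value was the higher one in each library. *Cebpe* and *Fcnb* did not overlap between classes, while the lowest cycling value of *Ms4a3* lay under the highest of the other class. In all precursors *Sox4*, the fourth gene tested there, was lower. Primary granule genes were higher in all precursors, 4 of 4 tested (*Ctsg*, *Elane*, *Mpo* and *Prtn3*), but in the unmixed fit only *Prss57*, a serine protease, passed of 5 (1.59 ± 0.38). *Mpo* changed by 2.05 ± 0.84, *Ctsg* by 1.73 ± 0.56 and *Prtn3* by 2.46 ± 0.90 in the unmixed fit. In all precursors they changed by 2.86 ± 0.36, 2.71 ± 0.44 and 2.68 ± 0.24, and *Elane* by 3.23 ± 0.30. *Elane* stood at 2196, 429 and 11688 CPM in cycling and 0, 35.3 and 3466 CPM in other unmixed precursors (3.40 ± 0.97, edgeR adjusted p = 0.0503). The cycling class was the higher one in each library, and the libraries differed more from each other than the classes did in the *Pdgfra-GFP* library.

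Secondary granule genes had no common direction over the fits. In all precursors *Chil3* (0.90 ± 0.23) and *Orm1*, an acute-phase glycoprotein (1.32 ± 0.31), were higher and 6 of 8 did not pass. In unmixed precursors 0 of 8 were higher and *Cd177*, *Lcn2*, *Ltf* and *Lyz2* were lower. *Ltf* stood at 4668, 6493 and 5166 CPM in cycling and 10998, 9653 and 9107 CPM in other unmixed precursors (-1.12 ± 0.18, edgeR adjusted p = 0.0102), and *Lcn2* changed by -0.95 ± 0.17. *Hp* (haptoglobin) stood at 2098, 1981 and 2308 CPM against 2215, 1935 and 2320 CPM (-0.26 ± 0.18). Of the oxidase genes 0 of 6 passed in all precursors, and *Cybb* (-0.77 ± 0.20), the catalytic subunit, was lower in unmixed ones. *Cebpb*, a C/EBP factor of emergency granulopoiesis, was lower in both fits (-0.95 ± 0.24 and -1.04 ± 0.23), and *Spi1*, which encodes PU.1, stood at 400, 382 and 576 CPM against 436, 433 and 476 CPM and did not pass.

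Barcodes under the gene minimum held more RNA of *Retnlg*, *Il1b*, *Cxcr2* and *Csf3r* and less of *Fcnb* than the unmixed precursors. Between 500 genes and the minimum, 47, 35 and 59 barcodes met the other conditions of the gate. They had medians of 4171, 4894 and 2354 UMIs. *Ngp* and *Camp* held 5.86, 3.95 and 11.7% of their gate UMIs, against 21.9, 17.9 and 28.4% in the precursors. *Retnlg* stood at 40185, 34161 and 37800 CPM, *Il1b* at 4135, 3628 and 4036 CPM, *Cxcr2* at 666, 726 and 489 CPM and *Csf3r* at 526, 601 and 368 CPM. Each of these lay above the value in cycling and in other unmixed precursors of its library. The low-gene barcodes were not limited in stromal or erythroid RNA, unlike these classes, and *Hbb-bs* stood at 11520, 51705 and 368 CPM in them. *Fcnb* stood at 14.0, 37.9 and 33.5 CPM, under the lowest value in either class. *Elane* stood at 0, 433 and 6.69 CPM and *Mpo* at 0, 173 and 0 CPM, so that in metaphyseal replicate 2 both primary granule genes lay above the 35.3 and 15.1 CPM of other unmixed precursors. No test was run on these barcodes.

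**Figure D4:**
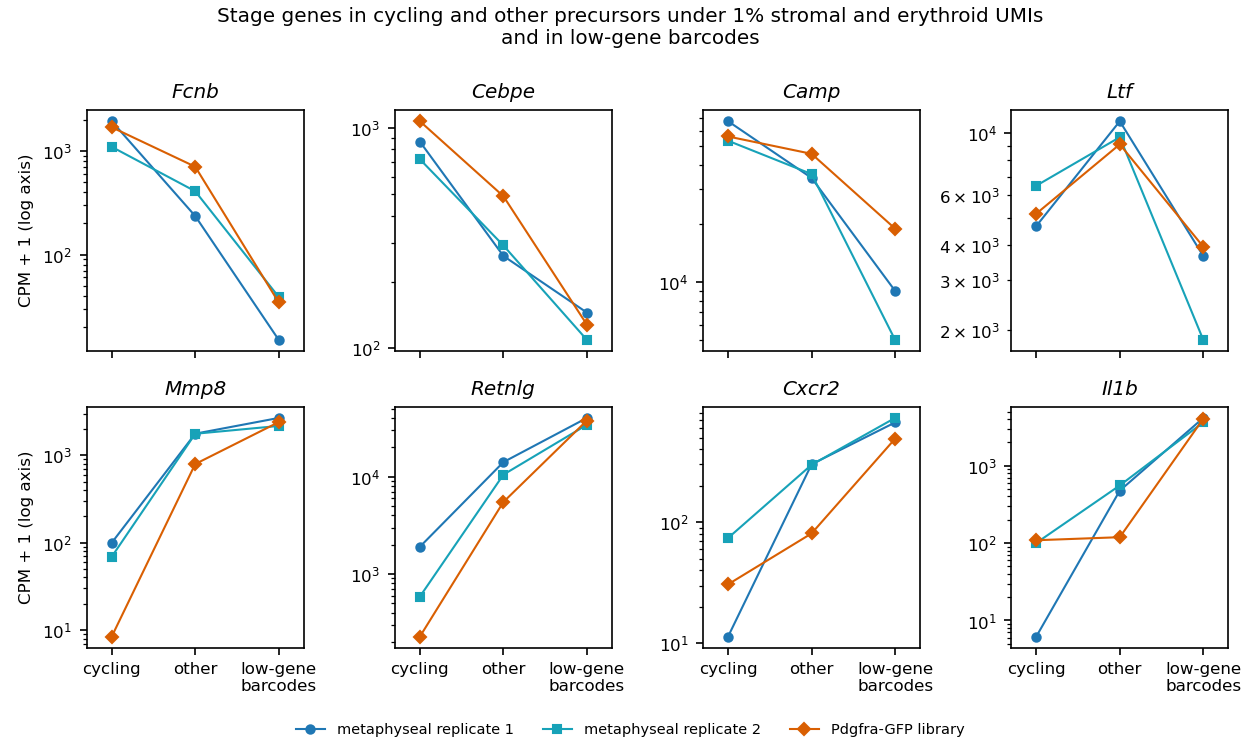
CPM plus 1 (logarithmic y axes) of 8 stage genes in cycling unmixed precursors, other unmixed precursors and barcodes between 500 genes and the gene minimum, with 1 line per library. *Fcnb*, *Cebpe* and *Camp* go down from left to right in each library and *Mmp8*, *Retnlg* and *Cxcr2* go up, while *Ltf* is highest in the middle class.

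The metaphyseal and *Pdgfra-GFP* precursors were compared last, to see whether the same cells differed between preparations. There was 1 *Pdgfra-GFP* library, which was assumed to vary like the metaphyseal ones in a fit that also held the B-lineage and macrophage sums and left 2 residual degrees of freedom. Both of these are the difference between metaphyseal replicates 1 and 2, once in precursors and once in B-lineage cells of the same libraries, and the fit treats these sums as independent. Precursor sums alone leave 1 degree of freedom. The p-values therefore rest on a single pair of libraries, may be too small, and are given as descriptions of these 3 libraries. The preparation is confounded with the sort, the genotype, the bead depletion and possibly the dissected region or the run, so these cannot be told apart. In all precursors 830 of 8172 genes (10.2%) passed, 408 (4.99%) higher and 422 (5.16%) lower in metaphyseal precursors. In unmixed precursors 374 of 7062 (5.30%) passed, 193 (2.73%) higher and 181 (2.56%) lower. Of 709 calls tested in both, 275 had the same call and 1 the opposite, and the Wald test of DESeq2 called 29 genes in all precursors.

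Several primary granule genes were lower and several gelatinase granule genes higher in the metaphyseal libraries, while secondary granule genes mostly did not pass. In unmixed precursors edgeR called 0 of 8 secondary granule genes (2 of them, *Cd177* and *Olfm4*, had an unadjusted p under 0.05), and in all precursors only *Olfm4* (2.24 ± 0.42). In unmixed precursors *Ltf* stood at 7755, 8102 and 7203 CPM (log2 fold change 0.27 ± 0.35). Primary granule genes were lower in the metaphyseal libraries, 4 of 6 in unmixed and 3 of 6 in all precursors. *Mpo* stood at 226, 15.4 and 2659 CPM (-4.40 ± 0.62, edgeR adjusted p = 0.000798), *Elane* at 1125, 228 and 7438 CPM (-3.40 ± 0.52) and *Ctsg* (cathepsin G) at 31.9, 5.13 and 1045 CPM (-5.70 ± 0.45). In each, the *Pdgfra-GFP* value was the highest of the 3, and the metaphyseal replicates differed from each other by 4-fold or more. *Ctsc* went the other way, by 0.75 ± 0.70 in unmixed and 0.32 ± 0.55 in all precursors. *Prtn3* changed by -1.70 ± 0.50 in unmixed and -0.40 ± 0.47 in all precursors. *Ms4a3* was lower too in unmixed precursors (274, 97.5 and 733 CPM, -1.89 ± 0.38). In all precursors it stood at 226, 110 and 332 CPM (-0.66 ± 0.36). The other early genes tested changed less in unmixed precursors: *Cebpe* by -0.40 ± 0.29, *Fcnb* by -0.24 ± 0.30 and *Sox4* by -0.18 ± 0.73. The monocyte gene *Ly6c2* stood at 617, 639 and 1587 CPM in unmixed precursors (-1.20 ± 0.29). The 7 monocyte genes had a median of -1.20 there and -0.24 in all precursors. CD117, encoded by *Kit*, was a target of the metaphyseal bead depletion and marks early progenitors, and its part in these differences was not tested. Gelatinase granule genes were higher in the metaphyseal libraries, 3 of 6 in unmixed and 5 of 6 in all precursors. *Mmp8* stood at 910, 929 and 413 CPM (1.29 ± 0.31) and *Itgam* at 354, 434 and 129 CPM (1.75 ± 0.36) in unmixed precursors. *Mmp9* changed by 0.42 ± 0.32 in unmixed and 1.01 ± 0.36 in all precursors. Of 22 late genes 6 were higher in unmixed precursors (*Cxcr2*, *Fpr1*, *Il1b*, *Retnlg*, *Stfa2l1* and *Trem1*) and 3 in all precursors, 0 lower in either. *Stfa2l1*, a stefin-type protease inhibitor, stood at 231, 295 and 18.0 CPM (3.99 ± 0.48) and *Retnlg* at 7867, 5636 and 2952 CPM (1.31 ± 0.34). In all precursors *Retnlg* stood at 7736, 5247 and 6017 CPM, with the *Pdgfra-GFP* value between the metaphyseal ones. *Cxcr4*, the receptor that retains neutrophils in the marrow, stood at 71.8, 59.0 and 18.0 CPM (1.97 ± 0.49), and *Cybb* at 1325, 1565 and 603 CPM (1.40 ± 0.35).

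**Figure D5:**
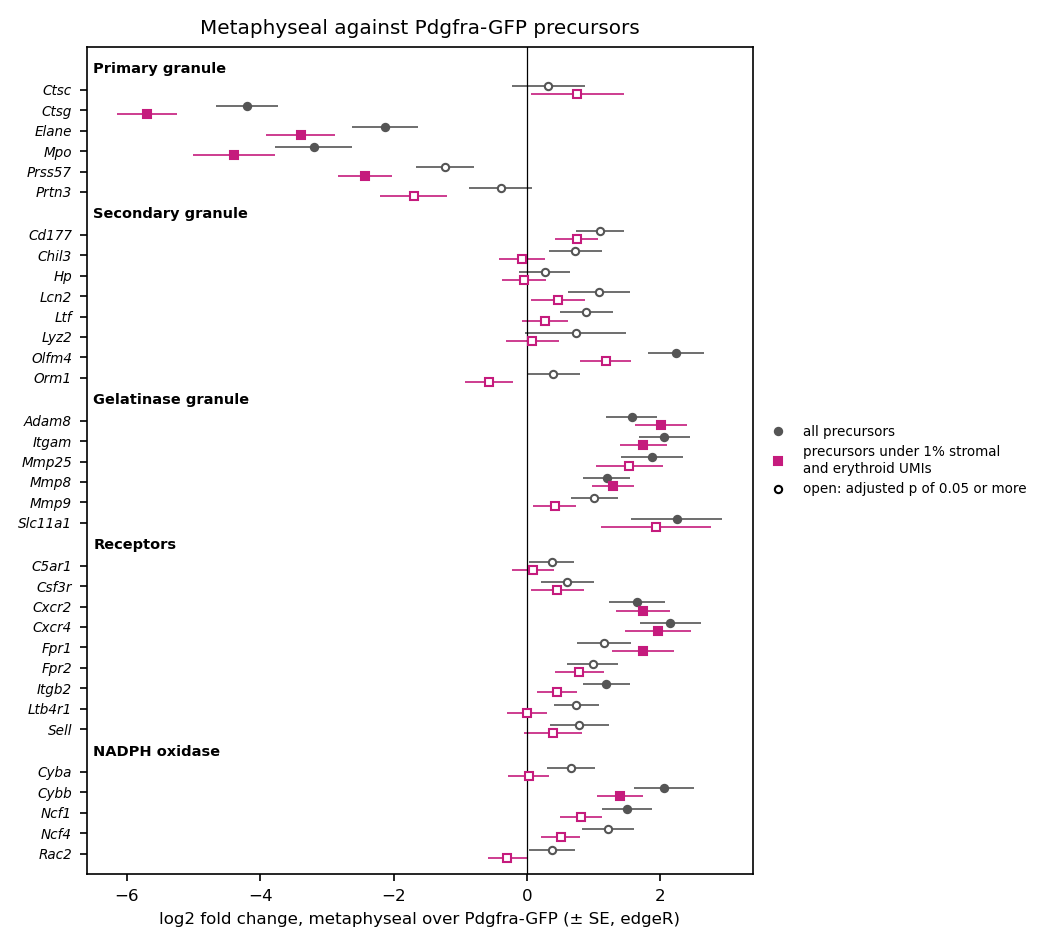
Log2 fold changes of metaphyseal over *Pdgfra-GFP* precursors (x axis, bars ± SE from edgeR) for genes of the granule, receptor and oxidase lists, in all precursors (grey circles) and unmixed precursors (pink squares), with open symbols at an adjusted p of 0.05 or more. *Ctsg*, *Mpo* and *Elane* lie left of 0 and the gelatinase granule genes right of it, and secondary granule genes in unmixed precursors lie between -0.57 and 1.18.

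Genes of the erythroid, stromal and chondrocyte lists also differed between the preparations. In all precursors *Hbb-bs* stood at 17599, 23489 and 359 CPM, and the 6 erythroid genes had a median log2 fold change of 6.19. Only 3 precursors in each metaphyseal library passed the 1% erythroid limit. *Prg4*, which encodes the joint lubricant lubricin, stood at 0, 0 and 761 CPM. In unmixed precursors 0 of 4 erythroid genes tested were higher, *Hbb-bs* was lower (95.8, 87.2 and 253 CPM), and *Prg4* still stood at 0, 0 and 223 CPM. Of 8 stromal genes, the collagen genes *Col1a1* and *Col1a2* with *Bglap*, *Cxcl12* and *Sparc* were lower in the unmixed metaphyseal precursors, and only *Bglap* and *Sparc* in all precursors. *Bglap* stood at 16.0, 7.70 and 406 CPM in the unmixed cells. Of 4 chondrocyte genes, *Acan*, *Col2a1* and *Col9a1* were tested in all precursors and were lower in the metaphyseal libraries, and *Col2a1*, the collagen of cartilage, was the 1 tested and lower in unmixed precursors (2.66, 20.5 and 355 CPM, -4.75 ± 0.51). The stromal list summed to 883, 400 and 2530 CPM in unmixed precursors. The near-empty barcodes of the *Pdgfra-GFP* library held 91715 CPM in the stromal list and the metaphyseal ones 39560 and 44916 CPM. Whether RNA free in the suspension carried it into the precursors was not tested. The remaining genes with the largest changes in unmixed precursors included *Mir6236*, *Stfa2*, *Lilrb4a*, *Cep350* and *Rap1gap2* (all at 0 in the *Pdgfra-GFP* precursors) among those higher and *Bglap3*, *Tppp3*, *Comp*, *Ctsk* and *Ecm1* among those lower.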

How the data were processed

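Per the labels and the study's methods, the authors aligned the reads to mm10 with STAR 2.7.3a and STARsolo after trimming with fastp 0.20, and deposited unfiltered UMI counts per gene and barcode, in which the H2B-GFP transgene is a gene of its own. Everything else was computed here from these counts: the gates, sums of UMIs per library and class (at least 5 cells), CPM and tests. The members, gene lists, mixed class and tests were chosen with earlier results of these data known. Tests were quasi-likelihood tests of edgeR 4.0.16 (R 4.3.3) with TMM scaling, a filter on low counts and Benjamini-Hochberg adjustment over all genes tested, at a threshold of 0.05. DESeq2 1.42.0 was an alternative. The libraries are the replicates. The p-values measure only the spread between the 3 libraries for cycling cells, and that between the 2 metaphyseal libraries where preparations were compared. On simulated counts of cycling and other cells, 98% of 200 genes changed 4-fold were called among 2569 genes, with 6 false calls. In the metaphyseal comparison 84.5% were called among 7027 genes, with 6 false calls. The changed genes were drawn from those with at least 20 expected counts in a sum of median size. All simulated sums were drawn independently from 1 pooled profile with 1 common spread and no library effect. The simulation therefore does not give the rate of false calls in the real comparisons. Named genes were all genes of the lists, the 15 leading genes and, per test, the 10 largest changes in each direction among called genes with at least 20 CPM. Scrublet (scanpy 1.11.5) calls were kept in. Macrophages with *C1qa* and *C1qb* were too few in the metaphyseal libraries for the intended test of a difference between cell types, so B-lineage cells took their place. Kept barcodes shared between libraries numbered 0 for the metaphyseal replicates, where 0.703 were expected by chance. Metaphyseal replicate 1 and the *Pdgfra-GFP* library shared 9 (3.94 expected), and metaphyseal replicate 2 and the *Pdgfra-GFP* library 10 (3.32 expected). For replicate 1 and the *Pdgfra-GFP* library, 1 precursor barcode was also kept in the other library. In every pair, 0 barcodes were precursors in both libraries. Binomial intervals cover counting error only. Gene positions are from Gencode M21 on GRCm38, the build but not the annotation release of the files. An alternative left out 1 library at a time, changed a filter, a gate, the scaling or the block, or kept only unmixed precursors. Some members of the erythroid and oxidase lists are not reported by name here.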

Additional observations from a re-analysis of the deposited data

Results flagged for a closer look

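The change between metaphyseal and *Pdgfra-GFP* preparations differed between precursors and B-lineage cells for 20 of 8170 genes (0.245%, edgeR adjusted p under 0.05 for the interaction), with the metaphyseal-minus-*Pdgfra-GFP* change of precursors above that of B-lineage cells in all 20. This test too rests on the spread between 2 metaphyseal libraries, whose precursor and B-lineage sums were treated as independent. They included *Prtn3*, *Elane*, *Ms4a3*, *Cebpe*, *Mmp9*, *Anxa3* and *Lgals3*. The B-lineage gate held 2519 CPM of *Elane* and 1505 CPM of *Mpo* in the *Pdgfra-GFP* library and 0 CPM of both in the metaphyseal ones. With unmixed precursors, edgeR called 0 of 7060 genes, with 519 at an unadjusted p under 0.05, and over all precursors DESeq2 called 2.

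Barcodes with fewer genes than the minimum also met the gate, 47 in metaphyseal replicate 1, 35 in metaphyseal replicate 2 and 59 in the *Pdgfra-GFP* library, which came up because the report's tests do not use them.

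Barcodes with at most 100 UMIs held 0.772, 1.01 and 0.267% of their UMIs in *Ngp*, *Camp*, *S100a8* and *S100a9*, above the 0.0351, 0.0949 and 0.0169% in the other kept cells of the same libraries.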

How the results depend on the processing

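With at least 500 genes in every library, the precursor share moved to 2.73% (83 of 3045), 2.73% (70 of 2564) and 1.37% (187 of 13639), and unmixed precursors alone were 0.489% of the *Pdgfra-GFP* cells. Unmixed precursors had 460 genes at least 4-fold lower than other kept cells in each library, against 23 in all precursors. For cycling against other precursors, the 698 called genes became 451 with DESeq2, 1501 without a filter on low counts (of 15991 tested), 183 with no replicate block for the library and 357 in unmixed precursors, and leaving out 1 library gave 597 to 789. Single named genes kept their direction and side of the threshold in 604 of 668 such repeats, and 64 lost the call, 28 of them without the block. Of the 604, 57 came from a minimum of 10 cells per sum. Every sum already met this minimum, so these only repeat the main fit and are no check. For metaphyseal against *Pdgfra-GFP* precursors, the 830 genes became 29 with DESeq2 and 374 in unmixed precursors. Its named genes kept direction and call in 306 repeats and lost the call in 57, of which 33 were with DESeq2, and 4 reversed. In unmixed precursors *Hba-a1* (-0.88), *Hba-a2* (-1.36), *Hbb-bs* (-1.34) and *Hbb-bt* (-1.85) reversed their log2 fold change, and the unmixed class leaves out cells rich in these genes by construction. The 20 genes of the difference from B-lineage cells became 2 with DESeq2, 56 without a filter and 0 in unmixed precursors. Other causes were not tested. No paired analysis of metaphyseal against *Pdgfra-GFP* precursors was possible because these libraries came from mice of different genotypes. Leaving out a metaphyseal library left 0 residual degrees of freedom in that comparison. Its 306 repeats that kept direction and call include 47 with the minimum of 10 cells per sum, which again only repeat the main fit. In the test of the difference from B-lineage cells, whose sums share libraries with the precursors, no block for the library was fitted. Sums over stage lists left their 95% counting interval in 33 of 72 repeats, 15 of them after thinning each cell to 2000 UMIs. The unmixed class, the B-lineage test and its repeats were chosen after seeing the data.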
